A study of Mus musculus with 71 samples.

Results

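Genes for spliceosomal small nuclear ribonucleoproteins (snRNPs) and heterogeneous nuclear ribonucleoproteins (hnRNPs) were followed in male mouse embryonic stem cells (mESC) treated with STM2457 or its solvent. They were chosen by symbol alone, as every gene whose name begins with Snrp, Sf3a, Sf3b, Prpf, Hnrnp or U2af. This gave 57 of the 21527 genes in the tables, of which 8 encode Sm core proteins, 4 proteins of the U1 and U2 snRNP, 9 subunits of SF3A and SF3B, 2 U2AF, 13 pre-mRNA processing factors (PRPF) and 20 hnRNPs, and 1 is the processed pseudogene Hnrnpa1l2-ps2. The rule used no measured value. Genes such as Snrnp70, whose symbols begin with Snrnp, lie outside it.

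All labelled libraries came from cells given 100 µM 4-thiouridine (s4U) for 24 h and then chased with an excess of uridine. STM2457, an inhibitor of the RNA methyltransferase Mettl3, was present at 20 µM in 0.2% DMSO from 6 h before the chase, and the controls received 0.2% DMSO alone. RNA was collected at 0, 1, 1.5, 2.3, 3.5, 5.3, 8 and 12 h of chase, which corresponds to 6 to 18 h of treatment, from 4 replicates per treatment and time point (3 for STM2457 at 3.5 h), and 4 unlabelled libraries were made for each treatment. This gave 71 libraries in 18 groups, all from 1 cell type without genetic change, so that time of chase and time of treatment cannot be told apart. Bulk libraries likewise cannot separate fewer cells from less RNA per cell.

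In SLAM-seq, alkylated s4U is read as C in place of T, so the share of covered T positions that carry a T-to-C conversion (the conversion rate) measures how much of a transcript was made during labeling. During the chase this share falls as old transcripts decay and unlabelled ones are made. Reads of these 3′-end libraries count transcripts whether labelled or not.

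Spliceosomal snRNPs recognize and join splice sites. The Sm proteins form a ring on the U1, U2, U4 and U5 small nuclear RNAs, U1 binds the 5′ splice site, U2AF binds the 3′ splice site and its polypyrimidine tract, and SF3A and SF3B belong to the U2 snRNP at the branch point. PRPF proteins serve the U4/U6.U5 tri-snRNP and later steps of the reaction. hnRNPs coat nascent RNA and promote or repress exons, and several of them control their own mRNAs through exons that lead to nonsense-mediated decay. Mettl3 writes N6-methyladenosine (m6A) in short motifs around GGAC, often close to stop codons, and methylated mRNAs are on average less stable.

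Counted reads per library ranged from 4539726 to 7368244. Of 9 pluripotency markers, all were above 1 in the median library in CPM, which is counted reads scaled to a common library size, from 2.71 CPM for Klf4 to 2683 CPM for Dppa5a (summed level 3773.8 to 5552 CPM), and fibroblast markers were at or near 0 (0 of 6 above 1 CPM, summed level 0 to 4.14). Summed primitive endoderm markers reached 1.15 to 12.8 CPM (1 of 5 above 1) and those of mesoderm or trophoblast 21.4 to 124 CPM (3 of 4 above 1). On the first principal component of the read counts, 12 libraries stood apart from the other 59, of which 9 were DMSO and 3 STM2457 libraries, with 3 of each treatment at 1 h and none at 12 h. Among the members, U2af2 had 134.8 to 368.1 CPM in the 8 DMSO chase libraries that stood apart, with a median of 205.8, and 408.0 to 873.7 CPM in the other 24, with a median of 653.0. The ranges of Hnrnpa1, Hnrnpk, Prpf3 and Prpf4b did not overlap there either. The libraries were told apart on the same read counts, so some such separation is built in. The share of all genes that separate in this way was not counted, so this is no trait of the members. Counts of called members are therefore given with and without these 12 libraries.

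The members took 1.79 ± 0.038% (SD, n = 4) to 1.91 ± 0.053% of all counted reads in DMSO over the chase and 1.68 ± 0.019% (n = 4) to 1.78 ± 0.036% (n = 3) in STM2457, so that the group means did not overlap between treatments, although single libraries did. A member had between 24 and 7754 reads in the median library, with a median of 1138 over the 57 genes. Multimapping reads made up over 50% of the reads of 10 members, among them Hnrnpf (98.0%), Hnrnph1 (91.2%), Hnrnph2 (98.3%), Hnrnpa1 (96.8%) and Hnrnpa3 (99.8%), and under 5% in 37. Reads of the former can be shared with near-identical copies, and their values are uncertain to that extent.

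Over the chase, treatment with STM2457 went along with lower read counts of more members than higher ones. In edgeR's quasi-likelihood test of the mean over the 8 time points, 24 of 57 members passed an adjusted p of 0.01, 2 of them higher and 22 lower in STM2457. Of all 12659 genes tested, 26.5% were called, 13.9% higher and 12.6% lower. The median log2 fold change was −0.09 for the members and −0.01 for all genes. Without the 12 libraries that stood apart, 20 members were called, 2 higher and 18 lower. Over all 13565 genes tested there, 1419 were higher and 1286 lower. With all libraries, the lower members were 10 of 20 hnRNPs, 6 of 13 PRPF genes, 3 of 9 SF3A and SF3B genes, 2 of 4 U1 and U2 genes and 1 of 8 Sm genes. Neither U2AF gene was called.

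**Figure D1:**
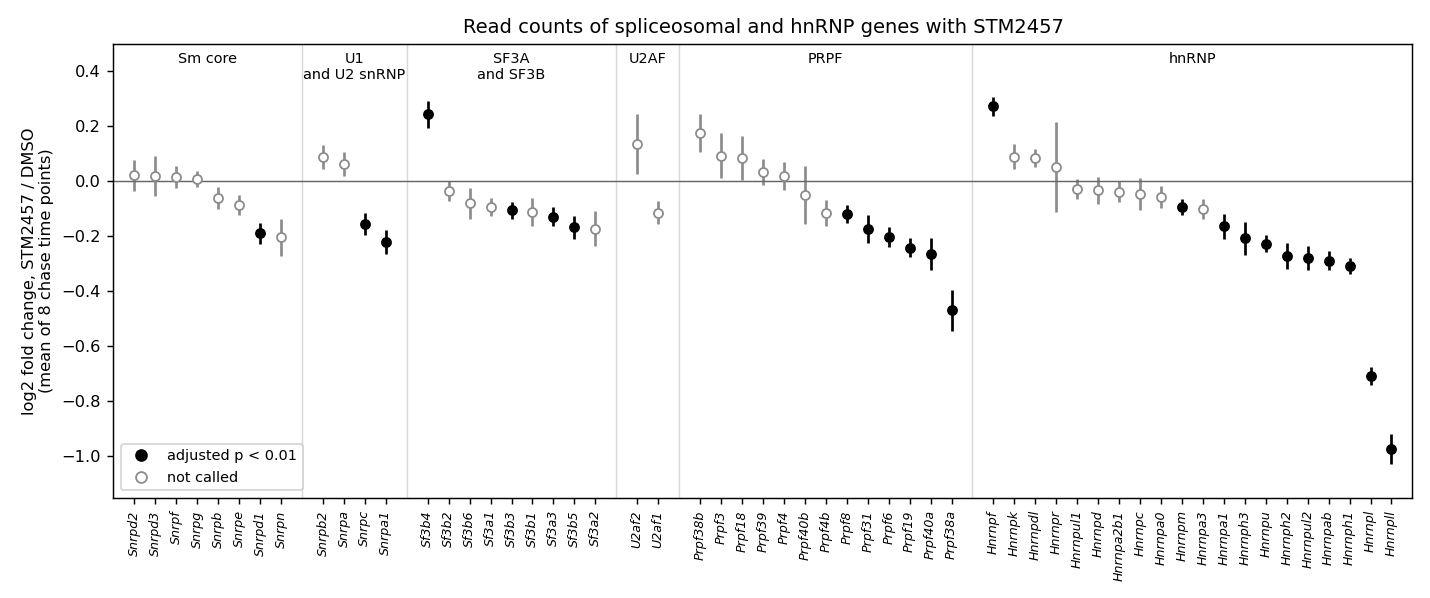
Log2 fold change of read counts, STM2457 over DMSO, averaged over the 8 chase time points, for each of the 56 protein-coding members by role. Points are edgeR estimates with standard errors, and filled points passed an adjusted p of 0.01. Hnrnpll (−0.97) and Hnrnpl (−0.71) lie far below the other members, and Hnrnpf (0.27) and Sf3b4 (0.24) are the filled points above 0.

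Hnrnpll and Hnrnpl were the members with the largest decreases. Both encode RNA-binding proteins that recognize CA-rich sequences and regulate alternative exons, and the 2 proteins are paralogs. Hnrnpl (chr7:28808541-28822266, + strand, GRCm38) had 309.0 to 439.2 CPM in the 32 DMSO chase libraries, with a median of 358.5, and 152.1 to 349.8 CPM in the 31 STM2457 libraries, with a median of 214.9. Of the STM2457 libraries, 29 lay below the lowest DMSO library and all 31 below the DMSO median. Its level was 1.63-fold lower over the chase (log2 fold change −0.71 ± 0.03 SE, edgeR adjusted p = 7.6e-30).

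Hnrnpll (chr17:80029487-80062334, − strand) had 51.8 to 122.2 CPM in DMSO, with a median of 78.9, and 27.3 to 71.3 CPM in STM2457, with a median of 42.6. Here 25 of the 31 STM2457 libraries lay below the lowest DMSO library. The level was 1.96-fold lower (log2 fold change −0.97 ± 0.06, edgeR adjusted p = 4.38e-24). Both genes had few multimapping reads (0.465% and 0.283%). The log2 fold changes without the 12 libraries were −0.70 for Hnrnpl and −0.92 for Hnrnpll.

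The lower level of both genes was already there when the chase began, after 6 h of treatment. At 0 h, Hnrnpl had 373.1, 357.9, 358.0 and 342.0 CPM in the DMSO libraries and 201.5, 229.9, 210.2 and 233.6 CPM in STM2457. Hnrnpll had 103.0, 75.9, 76.9 and 87.0 CPM in DMSO and 43.6, 27.3, 31.6 and 37.5 CPM in STM2457. For neither gene did the groups overlap. The log2 fold changes were −0.71 ± 0.09 for Hnrnpl and −1.29 ± 0.16 for Hnrnpll, with edgeR adjusted p of 2.91e-08 and 1.58e-08. Cells that never received s4U showed the same direction, with log2 fold changes of −0.57 ± 0.09 and −0.996 ± 0.15 (edgeR adjusted p = 6.18e-06 and 6.33e-06).

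At 0 h, 3 of 57 members were called, all lower (0.411% of genes tested were called lower and 1.68% in either direction), and the third was Hnrnpu, a nuclear matrix-associated RNA- and DNA-binding protein. Hnrnpu had 609.7, 623.0, 623.4 and 620.6 CPM in DMSO at 0 h and 485.7, 508.2, 448.1 and 490.0 CPM in STM2457 (log2 fold change −0.36 ± 0.09, edgeR adjusted p = 0.00576). The groups did not overlap, but its call was lost in 11 of 12 fits that left out a replicate, with adjusted p up to 0.0897. Without s4U, the third member called was Sf3b5, a small subunit of SF3B, with 247.2, 242.8, 248.8 and 261.0 CPM in DMSO and 180.7, 157.3, 188.4 and 185.4 CPM in STM2457 (log2 fold change −0.49 ± 0.12, edgeR adjusted p = 0.00498). Its call was lost without any 1 of 3 of the 4 replicate numbers, with adjusted p up to 0.0787, and in a fit of these 2 groups alone (adjusted p = 0.0192). All 3 members called there were lower, where 2.58% of genes were called, 1.73% higher and 0.845% lower. With the 12 libraries left out, 3 members were called in each comparison, all lower. Of 13565 genes, 230 were then called at 0 h (64 lower) and 350 without s4U (115 lower).

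**Figure D2:**
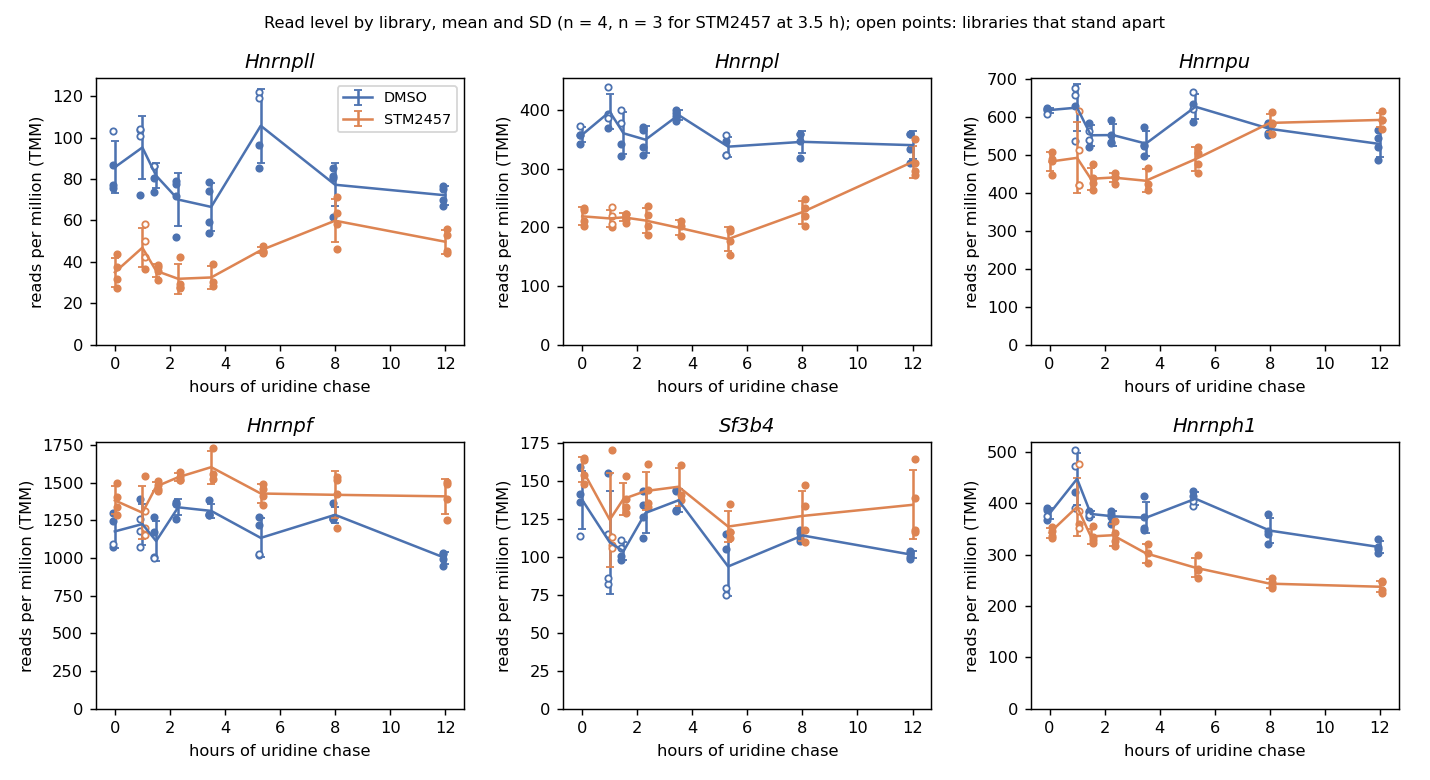
Read level (CPM after TMM normalization) against hours of chase for 6 hnRNP and SF3B genes. Points are libraries, open where they stand apart from the other libraries, and lines and bars are means and SD of 4 replicates (3 for STM2457 at 3.5 h). Hnrnpl and Hnrnpu in STM2457 lie below DMSO in the mean up to 5.3 h and reach means of 311.4 and 593.1 CPM at 12 h, against 340.0 and 529.7 CPM in DMSO.

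The gap in Hnrnpl was smaller at the end of the chase. The log2 ratio of the group means was −0.97 at 3.5 h, −0.91 at 5.3 h, −0.61 at 8 h and −0.13 at 12 h. At 12 h, Hnrnpl had 309.0, 332.6, 358.5 and 359.7 CPM in DMSO and 349.8, 289.6, 296.1 and 310.0 CPM in STM2457. The groups overlapped, and the log2 fold change of −0.13 ± 0.09 did not pass the test (edgeR adjusted p = 0.429). The log2 fold change between treatments was higher at 12 h than at 0 h by 0.58 ± 0.12 (edgeR adjusted p = 0.00206), and within STM2457 Hnrnpl rose by 0.51 ± 0.09 from 0 to 12 h (edgeR adjusted p = 3.26e-05). Hnrnpu had 486.3, 522.3, 565.5 and 544.6 CPM in DMSO and 594.1, 592.4, 569.1 and 616.8 CPM in STM2457 at 12 h. The groups did not overlap, with STM2457 above DMSO, but the log2 fold change of 0.16 ± 0.09 did not pass (edgeR adjusted p = 0.251). Its treatment difference moved by 0.52 ± 0.12 between 0 and 12 h (edgeR adjusted p = 0.00546). These were the 2 members of 57 called in this comparison, both upward, against 1.11% of all genes (0.916% upward and 0.19% downward). Without the 12 libraries 4 were called, all upward, while calls over all genes rose from 140 of 12659 to 236 of 13565. The call was lost for Hnrnpu without any 1 of the 4 replicate numbers (adjusted p up to 0.0838) and for Hnrnpl without 3 of them (up to 0.128). Hnrnpll moved by 0.75 ± 0.22, which did not pass (adjusted p = 0.0452).

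Matches to GGAC followed by any base but G, which hold the core of the m6A consensus, were searched in GENCODE M21 transcripts, taking for each gene the coding transcript with the longest coding sequence. Only the sense strand was searched. Within 100 bases on either side of the end of the stop codon, 33 of 55 members with a complete window held at least 1 match (60%), as did 58.7% of 11422 genes. The share was 9 of 20 for hnRNPs and 10 of 12 for PRPF genes. Over whole transcripts, the median was 2.85 matches per kb for the members and 3.72 for all genes. Of the 22 members with lower read counts over the chase, 21 had a complete window and 9 of these held a match, among them Prpf19 and Sf3b3 with 3 each. Both members with higher read counts, Hnrnpf and Sf3b4, held 1 in this window, and Hnrnpl and Hnrnpll held none. Over their whole transcripts, Hnrnpf and Hnrnpl held 7 each, Hnrnpll 5 and Sf3b4 12. Of the matches whose printed run lies within 1 exon, the one nearest the stop codon is shown. A nearer match at an exon junction would thus not appear. Runs are given for Hnrnpl, Hnrnpll, Hnrnpf and Sf3b4, since their read counts moved most in each direction, and for the pair Hnrnph1 and Hnrnph2. The motif is in capitals, with GRCm38 positions of the whole run.
Hnrnpl, coding sequence, chr7:28821415-28821435, + strand: ctggagtgGGACTcgaagagc
Hnrnpll, coding sequence, chr17:80034126-80034146, − strand: caagtgctGGACAagcatcta
Hnrnpf, 3′ UTR, chr6:117925090-117925110, + strand: aagctgggGGACCcactttgc
Sf3b4, 3′ UTR, chr3:96177209-96177229, + strand: catttcttGGACCaatcagag
Hnrnph1, coding sequence, chr11:50383213-50383233, + strand: ttgagattGGACCtgatggca
Hnrnph2, 3′ UTR, chrX:134606258-134606278, + strand: gaagcaagGGACCatccaata

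A match says only that these letters are present, and whether the sites are methylated was not measured in these libraries. The printed matches of Hnrnpl and Hnrnpll ended 119 and 301 bases before the end of the stop codon, and those of Hnrnpf and Sf3b4 began at bases 94 and 51 after it.

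Hnrnpf and Sf3b4 were the 2 members with higher read counts in STM2457 over the chase. Hnrnpf encodes a protein that binds G-rich sequences, and it had the most reads of any member. Its level was 949.3 to 1394.1 CPM in the 32 DMSO libraries, with a median of 1257.0, and 1150.0 to 1727.2 CPM in the 31 STM2457 libraries, with a median of 1484.0. Of the STM2457 libraries, 22 lay above the highest DMSO library. The increase was 1.21-fold (log2 fold change 0.27 ± 0.03, edgeR adjusted p = 4.01e-10). At 12 h, Hnrnpf had 949.3, 1035.7, 990.7 and 1024.2 CPM in DMSO and 1253.7, 1391.2, 1501.2 and 1488.3 CPM in STM2457, without overlap (log2 fold change 0.49 ± 0.09, edgeR adjusted p = 9.42e-05). Almost all of its reads were multimapping. Counting only the rest, the change was 0.25 over the chase and 0.61 at 12 h, neither of which passed the test (edgeR adjusted p = 0.0156 and 0.118).

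Sf3b4 encodes a subunit of SF3B that contacts the pre-mRNA near the branch point. It had 75.1 to 159.5 CPM in DMSO, with a median of 113.1, and 106.1 to 170.7 CPM in STM2457, with a median of 135.5. The ranges overlapped, with 6 of 31 STM2457 libraries above the highest DMSO library, and the level rose 1.18-fold (log2 fold change 0.24 ± 0.05, edgeR adjusted p = 3.78e-05). At 12 h its change of 0.41 ± 0.14 did not pass (adjusted p = 0.0445). Of the other 8 SF3A and SF3B genes, Sf3b3, Sf3a3 and Sf3b5 were lower, with log2 fold changes of −0.10, −0.13 and −0.17.

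Of the members with the most reads in their role, Prpf8 and Sf3b3 were lower over the chase, at −0.12 ± 0.03 and −0.10 ± 0.03. Snrpe (−0.08 ± 0.04), Snrpb2 (0.09 ± 0.05) and U2af2 (0.14 ± 0.11) did not pass (edgeR adjusted p of 0.0566, 0.116 and 0.349).

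The next largest decreases over the chase were those of Prpf38a, Hnrnph1, Hnrnpab and Hnrnpul2. Prpf38a encodes a protein needed for activation of the assembled spliceosome. It had a median of 50.7 CPM in DMSO and 36.9 CPM in STM2457 (log2 fold change −0.47 ± 0.07, edgeR adjusted p = 3.29e-07), and −0.36 without the 12 libraries, in which it was high. Hnrnpab changed by −0.29 ± 0.03 and Hnrnpul2 by −0.28 ± 0.04 (edgeR adjusted p = 6.63e-11 and 2.78e-07).

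Hnrnph1 and Hnrnph2 encode near-identical proteins of the same G-run-binding family as hnRNP F, Hnrnph1 on chromosome 11 and Hnrnph2 on the X chromosome, where it is the sole member. Hnrnph1 had 374.6, 367.5, 390.5 and 386.3 CPM in DMSO and 337.0, 353.4, 332.0 and 345.5 CPM in STM2457 at 0 h. At 12 h it had 302.4, 311.4, 314.5 and 329.4 CPM in DMSO and 225.1, 231.0, 245.8 and 247.7 CPM in STM2457. The groups did not overlap at either time, and over the chase the change was −0.31 ± 0.03 (edgeR adjusted p = 3.46e-14). Hnrnph2, at 69, 68.8, 65.2 and 59.4 CPM in DMSO and 57.8, 54.4, 47.5 and 57.6 CPM in STM2457 at 0 h, changed by −0.27 ± 0.05 over the chase (adjusted p = 2.28e-06). Over 90% of the reads of both were multimapping. Counted without them, Hnrnph1 changed by −0.33 over the chase (edgeR adjusted p = 0.0012), while Hnrnph2 went the other way, at 0.07 (adjusted p = 0.991).

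At 12 h of chase, 4 of 57 members were called between treatments, 1 higher and 3 lower, where 5.41% of all genes were called, 3.85% higher and 1.56% lower. The lower ones were Hnrnph1 (−0.41 ± 0.08), Hnrnpul2 (−0.46 ± 0.12) and Prpf19 (−0.50 ± 0.10, edgeR adjusted p = 0.00013), the last of which encodes the ubiquitin ligase of the Prp19 complex. Hnrnpul2 lost its call in 10 of 12 fits without a replicate, with adjusted p up to 0.121, and Hnrnph1 lost its call without multimapping reads (−0.36, adjusted p = 0.409). The count at 12 h was 10 without the 12 libraries, 4 higher and 6 lower. Calls over all genes also rose there, from 685 of 12659 to 1088 of 13565 (767 higher and 321 lower).

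Read counts of members also changed with time in the absence of the inhibitor. From 0 to 12 h in DMSO, 14 of 57 members passed the test, 1 higher and 13 lower, where 13% of all genes were called, 4.84% higher and 8.2% lower. Leaving out the 12 libraries gave 19 calls, 1 higher and 18 lower, where 1753 of 13565 genes were called, 576 higher and 1177 lower. The median change was −0.26 for members and 0.04 for all genes. The decreases included 4 of 8 Sm genes, 2 of 4 U1 and U2 genes and 6 of 20 hnRNPs, and none of the 13 PRPF genes was called. Snrpd1, of the Sm ring, had 420.1, 406.7, 530.8 and 505.0 CPM at 0 h and 290.9, 290.7, 307.7 and 337.4 CPM at 12 h, without overlap. It fell by 0.60 ± 0.11 (edgeR adjusted p = 1.04e-05).

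Snrpa1, which encodes a protein of the U2 snRNP, fell by 0.60 ± 0.12, Sf3b5 by 0.57 ± 0.12 and Hnrnph2 by 0.57 ± 0.13 (edgeR adjusted p of 0.00015, 0.000164 and 0.000693). Counted without multimapping reads, the change of Hnrnph2 was −1.16 and did not pass (adjusted p = 0.49). Hnrnpdl, which encodes an hnRNP D-like protein and carries a conserved self-regulated exon, was the 1 member called higher. Prpf40b, with 106 reads in the median library, had a larger estimate (1.75-fold against 1.42-fold for Hnrnpdl) but was not called. Hnrnpdl had 266.6, 284.9, 319.4 and 321.8 CPM at 0 h and 406.9, 394.2, 462.0 and 430.5 CPM at 12 h (0.51 ± 0.09, edgeR adjusted p = 1.76e-05). In STM2457, 7 members were called over the same hours, 1 higher (Hnrnpl) and 6 lower (Hnrnph1, Hnrnpab, Snrpa, U2af1, Sf3a1 and Prpf19), where 4.72% of all genes were called, 1.69% higher and 3.03% lower. Without multimapping reads, Hnrnph1 lost this call (−0.40, edgeR adjusted p = 0.333). Without the 12 libraries the count was 14, with 4 higher and 10 lower. Calls over all genes also rose there, from 598 of 12659 to 1103 of 13565 (463 higher and 640 lower). The difference between the treatments in this change is the one tested above, where Hnrnpl and Hnrnpu were called.

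Of the other spliceosome genes, a list by function with 55 genes tested, 7 were higher and 12 lower in STM2457 over the chase, with a median log2 fold change of −0.06. Over all genes tested, 13.9% were higher and 12.6% lower, with a median of −0.01. The 16 snRNP genes under other symbols had 3 higher and 2 lower, the 7 LSm genes 1 each way, and the 23 genes of the Prp19 complex, helicases and step factors 2 higher and 6 lower. Among 9 further hnRNP-like genes, Pcbp1, which encodes a poly(C)-binding protein, rose by 0.34 ± 0.04, and Ptbp2, Taf15 and Ewsr1 were lower. The spliceosomal helicase gene Dhx16 had the largest decrease of this list (−0.47 ± 0.04, edgeR adjusted p = 1.96e-18). At 0 h 1 of the 55 was called, and without s4U none was, against 1.68% and 2.58% of all genes.

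At the start of the chase, the pooled conversion rate of the members was 1.48 ± 0.074% in DMSO and 1.35 ± 0.066% in STM2457 (SD, n = 4), and that of all genes 1.37 ± 0.067% and 1.28 ± 0.073%. Unlabelled libraries gave 0.0717 ± 0.0037% and 0.0708 ± 0.0069% for the members, which is the background of sequencing errors and other mismatches. No member was called at 0 h in edgeR's test of conversions with covered T positions as offset, 55 members and 10231 genes being tested. In this comparison 0% of genes were called, and 4 members had an unadjusted p under 0.05. Hnrnpr and Hnrnpa1l2-ps2, with the fewest reads of the members, had too few conversions to be tested.

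**Figure D3:**
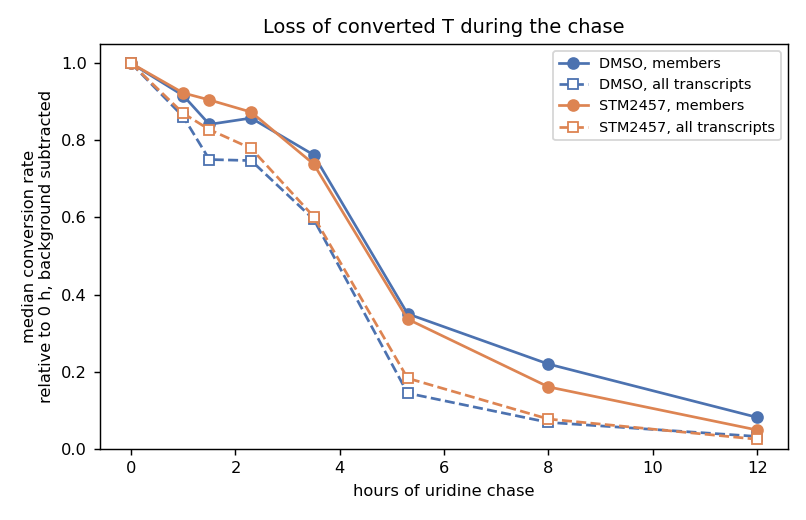
Median conversion rate relative to 0 h, after subtraction of the unlabelled rate, against hours of chase, for members (filled) and all transcripts (open) in each treatment. At 5.3 h the members kept 0.350 in DMSO and 0.336 in STM2457, and all transcripts 0.144 and 0.183.

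The members' median rate stayed above that of all transcripts at each time after 0 h, and it did not decline evenly. The median relative rate of the members in DMSO was 0.762 at 3.5 h and 0.350 at 5.3 h, and in STM2457 0.739 and 0.336, so that the steepest fall lay between these time points in both treatments. Over all transcripts, the values were 0.595 and 0.144 in DMSO and 0.602 and 0.183 in STM2457. A single exponential describes such a course only in part. By 12 h, members kept 0.0815 in DMSO and 0.0487 in STM2457.

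Hnrnpf was the 1 member of 55 whose loss per hour from 0 to 5.3 h differed between treatments, where 0.235% of genes were called (0.225% with slower loss in STM2457). Its conversion rate was 1.46 ± 0.083% at 0 h and 0.222 ± 0.018% at 5.3 h in DMSO, and 1.31 ± 0.066% and 0.346 ± 0.030% in STM2457 (SD, n = 4). The slope of the log2 rate differed by 0.13 ± 0.02 per hour (SE, edgeR adjusted p = 2.12e-06), in the direction of slower loss with STM2457. The groups were close at 3.5 h, at 0.921 ± 0.072% and 0.923 ± 0.053% (n = 3), and over 0 to 3.5 h the slope difference of 0.05 did not pass. Without the 12 libraries it was 0.14 (adjusted p = 0.000904) and Hnrnpf was again the 1 member called, among 2 of 10955 genes. The rate of Hnrnpf rests largely on multimapping reads.

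At 12 h, the members held less label in STM2457 than in DMSO. Their pooled conversion rate was 0.246 ± 0.0088% in DMSO and 0.165 ± 0.0097% in STM2457 (SD, n = 4), without overlap between libraries. The rate over all genes was also lower, at 0.279 ± 0.010% and 0.223 ± 0.0060%, and did not overlap either (0.265 to 0.290% against 0.218 to 0.232%). Of the 55 members tested, 17 were called, 1 higher and 16 lower, where 4.49% of genes were called, 0.567% higher and 3.92% lower. The median log2 difference was −0.53 for members and −0.15 for all genes. These rates include the unlabelled background, over all genes 0.0814% in DMSO and 0.0829% in STM2457. It draws differences of transcripts with little label left toward 0. At 12 h the median transcript kept 0.0320 and 0.0247 of its 0 h rate, and the median member 0.0815 and 0.0487. Members and all genes were thus not compared at like label. With background subtracted and a floor of 0.01%, limma gave medians of −0.70 and −0.13. Without the 12 libraries, 17 of 57 members tested were called, 1 higher and 16 lower, where 396 of 10955 genes were called, 43 higher and 353 lower. With the overall rate of each library added to the offset, 12 were called, 2 higher and 10 lower, against 139 higher and 127 lower over all genes, and the medians were −0.20 for members and 0.06 for all genes.

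**Figure D4:**
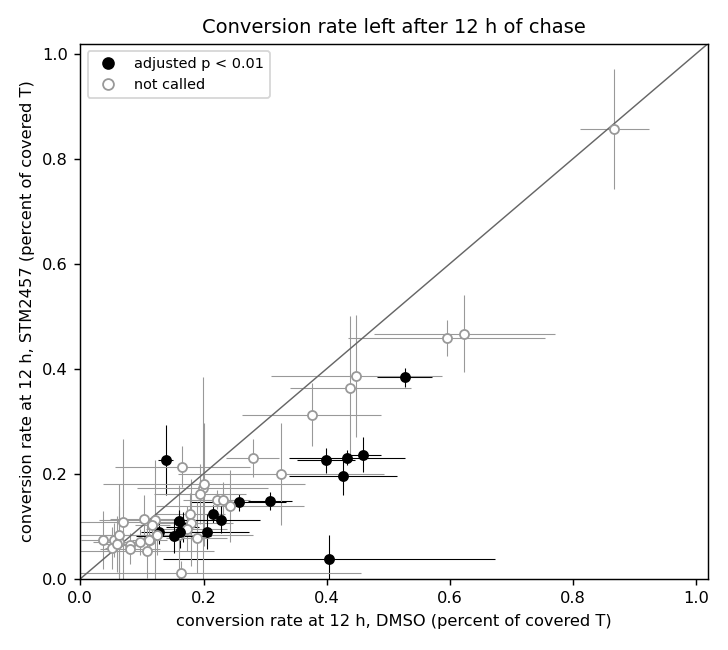
Mean conversion rate after 12 h of chase in STM2457 against DMSO for the 55 members tested, as percent of covered T positions, with SD of 4 libraries. The line marks equal rates and filled points passed an adjusted p of 0.01. Of the 17 filled points, 16 lie below the line and Hnrnpa0 lies above it.

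The members with a lower rate at 12 h were 9 of 19 hnRNPs, 3 of 8 Sm genes, both U2AF genes, 1 of 13 PRPF genes and 1 of 9 SF3A and SF3B genes. Hnrnpc, Hnrnph3 and Hnrnpa0 are described here because of their values. Hnrnpc, which encodes a protein that binds uridine tracts in nascent RNA, had 0.307, 0.303, 0.354 and 0.266% in DMSO and 0.171, 0.15, 0.137 and 0.135% in STM2457 (log2 difference −1.06 ± 0.11, edgeR adjusted p = 6.19e-15). Snrpe, of the Sm ring, had 0.471, 0.444, 0.425 and 0.494% in DMSO and 0.198, 0.226, 0.276 and 0.246% in STM2457 (−0.95 ± 0.11, edgeR adjusted p = 1.74e-12). For both genes the groups did not overlap, and both were also called with the overall rate in the offset, at −0.73 and −0.63. Of the reads of Snrpe, 60.2% were multimapping.

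Hnrnpl had 0.522, 0.466, 0.401 and 0.317% in DMSO and 0.199, 0.179, 0.244 and 0.162% in STM2457 at 12 h, without overlap (−1.11 ± 0.16, edgeR adjusted p = 4.43e-09). At this time point its read level in STM2457 had risen from that at 0 h, as described above. Prpf8, the central scaffold of the spliceosome, had 0.166 ± 0.027% in DMSO and 0.0980 ± 0.029% in STM2457 (−0.75 ± 0.15, edgeR adjusted p = 5.38e-05). U2af2, the large U2AF subunit, had 0.160 ± 0.0068% and 0.111 ± 0.020% (−0.54 ± 0.13, edgeR adjusted p = 0.00123). Neither passed with the overall rate in the offset. Hnrnph3 had the largest fitted difference, but only 98 conversions in the 4 DMSO and 7 in the 4 STM2457 libraries, and its DMSO rates spread from 0.120 to 0.700%.

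The exception was Hnrnpa0, an intronless hnRNP gene. Its rate at 12 h was 0.139, 0.122, 0.151 and 0.142% in DMSO and 0.303, 0.205, 0.145 and 0.251% in STM2457 (0.70 ± 0.14, edgeR adjusted p = 0.000103), with overlap of 1 library. The unlabelled rate of Hnrnpa0 was 0.128 ± 0.028% in DMSO and 0.108 ± 0.032% in STM2457, so that its DMSO value at 12 h lay at the background. Left out 1 at a time, the replicate numbers gave adjusted p from 6.89e-06 to 0.0211.

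Half-lives were obtained for 54 of the 57 members by fitting an exponential to the mean relative rates. Hnrnpr, Sf3a3 and Hnrnpa1l2-ps2 failed on the residual error. Members had a median half-life of 4.72 h with DMSO alone and 4.64 h with STM2457. Over 7393 transcripts these medians were 3.19 h and 3.45 h. Replicate series joined libraries of the same replicate number across time points, and all series of a treatment shared the same unlabelled rate. Whether such libraries belong together across time points was not tested. The SD and p of series therefore describe these chains and are not those of fully independent replicates. Across the 4 replicate series of a treatment, DMSO gave a median over the 54 members of 4.83 ± 0.21 h and STM2457 one of 4.46 ± 0.32 h (SD, n = 4, exact two-sided permutation p = 0.143, where 0.0286 is the smallest possible). For the larger set of transcripts fitted in all series (n = 5756) it was 3.41 ± 0.078 h and 3.57 ± 0.25 h (exact two-sided permutation p = 0.286).

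The STM2457 series of replicate number 4 was fitted without 3.5 h, for which only 3 libraries were analysed here. With 3.5 h left out of all 8 series, the members gave 4.38 ± 0.24 h and 4.25 ± 0.29 h (exact two-sided permutation p = 0.486), and the larger set gave 3.15 ± 0.065 h and 3.38 ± 0.12 h (exact two-sided permutation p = 0.0286).

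By role, the median half-life in DMSO was longest in Sm genes (6.46 h, 8 genes) and shortest in PRPF genes (4.18 h, 13 genes), with 5.19 h in 19 hnRNPs, 5.04 h in 8 SF3A and SF3B genes, 4.95 h in 4 U1 and U2 genes and 4.36 h in 2 U2AF genes. The ranges of these groups overlapped widely, from 3.79 to 10.96 h in Sm genes and from 2.19 to 6.24 h in PRPF genes.

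**Figure D5:**
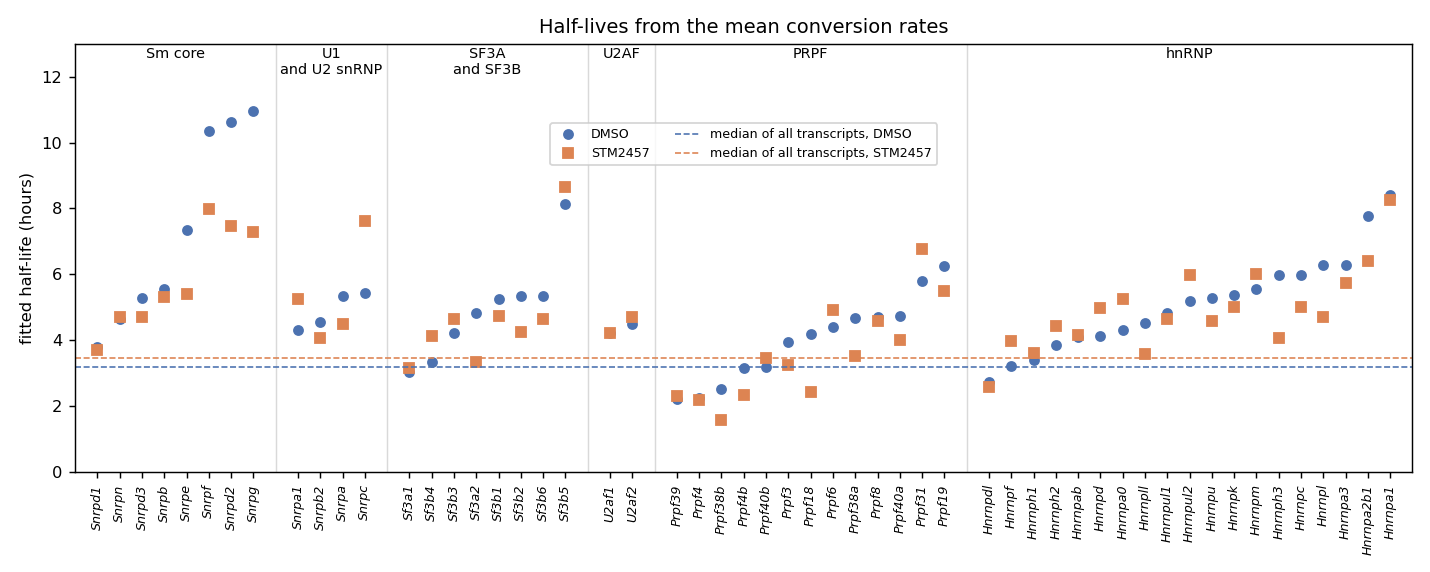
Fitted half-life in hours for the 54 members with a fit, by role and ordered by the DMSO value. Circles are DMSO, squares STM2457, and dashed lines the medians over all transcripts. Snrpg, Snrpd2 and Snrpf lie highest in DMSO, at 10.96, 10.6 and 10.4 h, and Prpf39, Prpf4 and Prpf38b lowest, at 2.19, 2.25 and 2.52 h.

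The 3 longest half-lives in DMSO belonged to Sm proteins. Snrpg had 10.1, 8.68, 11.1 and 16.6 h in the DMSO series and 7.07, 8.19, 5.99 and 8.01 h in STM2457. The groups did not overlap. Snrpd2 had 15.1, 7.41, 9.59 and 15.0 h in DMSO and 8.72, 11.8, 4.95 and 7.67 h in STM2457, and Snrpf 15.2, 11.34, 7.12 and 10.8 h against 7.96, 7.00, 8.28 and 8.80 h. For Snrpd2 and Snrpf the series overlapped. Each of these genes had at least 1 DMSO series with a half-life beyond the 12 h of the chase. Multimapping reads made up 66.4% of the reads of Snrpg, 43.7% of those of Snrpd2 and 3.36% of those of Snrpf. These genes were chosen for long half-lives in DMSO, so that their differences are given here with no test.

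The shortest half-lives were those of Prpf39, a U1-associated factor, Prpf4, of the tri-snRNP, and Prpf38b. The series of Prpf39 gave 2.43 ± 1.1 h in DMSO and 2.32 ± 0.27 h in STM2457, those of Prpf4 2.64 ± 1.4 h and 2.28 ± 0.81 h, and those of Prpf38b 3.21 ± 1.6 h and 1.59 ± 0.35 h (SD, n = 4 each). They were chosen for short half-lives in DMSO, and their differences are likewise given with no test.

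Between treatments, 20 of 54 members had a longer half-life in STM2457 (37.0%), against 56.7% of all transcripts, and the median log2 change was −0.07 and 0.07. Without the 12 libraries, 28 of 54 members were longer (51.9%, against 65.7% of all transcripts) and the median change of members was 0.02, while with a residual standard error up to 0.15 it was −0.17 (7 of 31 longer) and without replicate number 2 −0.13. The size and sign of this change are not settled by these data. In limma across series, 0 of 54 members and 0% of all transcripts passed an adjusted p of 0.05. At an unadjusted p under 0.05 there were 2 members, Snrpg and Prpf38b, both shorter and both among the extremes in DMSO, and 406 of 5756 transcripts (7.05%). Hnrnpf had 3.14, 2.97, 3.49 and 3.32 h in DMSO and 4.22, 3.79, 3.88 and 3.63 h in STM2457, without overlap (exact two-sided permutation p = 0.0286, limma adjusted p = 0.826). Hnrnpl had 6.51 ± 1.5 h and 4.69 ± 0.69 h (exact permutation p = 0.0857), and the series of Hnrnpll gave 4.72 ± 1.3 h and 5.03 ± 4.1 h. The latter rests on 1 STM2457 series at 10.9 h, without which the mean was 3.07 ± 1.4 h (n = 3), and the fit to mean rates gave Hnrnpll 4.52 h in DMSO and 3.57 h in STM2457.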

How the data were processed

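SLAM-seq libraries of mESC were grouped by the treatment and time point in their labels. The labels number the time points without hours. The hours were taken from the times listed in the study's source data and matched in order. Per the labels the genome build was GRCm38.p6 and FastQC 0.11.8 was among the tools. The authors mapped 3′-end reads with SLAM-DUNK, masked variants called in unlabelled libraries, counted on 3′ UTR windows from an earlier annotation, filtered to match GENCODE, and collapsed windows per gene. They deposited raw counts of reads, multimapping reads, covered T positions and conversions, and the conversion rate as a fraction, which equalled conversions over covered T positions in all 909608 entries checked. No molecular identifiers are stated, so counting error is only part of the error. No 2 of the 105 replicate pairs held identical values. The study describes the replicates as independent.

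Read counts were tested with edgeR 4.0.16 (TMM, filterByExpr, quasi-likelihood, 1 fit of all 71 libraries) and conversions likewise over 63 labelled libraries with log covered T positions as offset, at a Benjamini-Hochberg adjusted p under 0.01 over all genes tested. Genes for conversions needed a mean T coverage above 100. Half-lives were fitted to rates averaged over replicates, minus the unlabelled rate and relative to 0 h, and kept on chromosomes 1 to 19 and X at T coverage above 100, 0.67 to 18 h and a residual standard error up to 0.3 in both treatments. Series of the same replicate number were compared with limma 3.58.1 (adjusted p under 0.05) and exact permutation tests. DESeq2 1.42.0, other scalings, filters, offsets and time ranges, a replicate block and fits without single replicates were alternatives. The tests across genes were checked on simulated data. The simulated libraries varied independently and none stood apart, so the check does not cover the effect of such libraries.

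Members and lists were chosen with earlier results of these data known. Named genes are the 6 largest called changes each way over the chase, the 4 largest each way from 0 to 12 h in DMSO, the 3 shortest and 3 longest half-lives in DMSO, members called for the slope, the member with most reads in each role, and Hnrnph1 with Hnrnph2. Those named as called at 0 h, at 12 h, without s4U or in the change between times, and those of the other list, were chosen after their values were seen. Libraries stood apart when their first principal component score lay over 2.5 scaled median absolute deviations below the median, and this alternative, like leaving 3.5 h out of every series, was added after the data were seen. Positions and transcripts came from GENCODE M21 (GRCm38).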

Additional observations from a re-analysis of the deposited data

Results flagged for a closer look

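The treatment difference in read counts changed between 0 and 12 h of chase for Hnrnpl, by 0.58 on the log2 scale, and for Hnrnpu, by 0.52, and in both the difference itself was tested (edgeR adjusted p = 0.00206 and 0.00546). In 72 groups of 4 libraries or series that were examined for 1 value far from the other 3, 4 had such a value, where chance alone gives about 1 group in 20. The pooled conversion rate of members was 1.13% in 1 DMSO library at 1.5 h, with the others from 1.26 to 1.28%, and 0.232% in 1 DMSO library at 12 h, with the others from 0.250 to 0.251%. In STM2457 at 2.3 h it was 1.15% in 1 library and 1.21 to 1.22% in the others. The low libraries at 1.5 and 2.3 h both had replicate number 1, and that at 12 h had number 2. In unlabelled DMSO cells, the members took 1.82% of reads in 1 library and 1.92 to 1.94% in the others.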

How the results depend on the processing

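Counts of called members moved by over 1.5 times in these cases. At 12 h of chase, 4 members were called for reads, against 1 without multimapping reads, 10 without the 12 libraries that stood apart, 8 in a fit of the 2 groups alone and 7 with DESeq2, and 2 to 4 without a replicate. For the change of the treatment difference between 0 and 12 h, 2 were called, against 0 with no filter on low counts, 4 without the 12 libraries and 0 to 1 without a replicate. From 0 to 12 h, the 14 calls in DMSO became 8 to 12 and the 7 in STM2457 2 to 5 without a replicate, the latter 14 without the 12 libraries. Calls over all genes rose as well without the 12 libraries. They went from 685 to 1088 at 12 h, from 140 to 236 for the treatment difference between times and from 598 to 1103 for time in STM2457. For the loss of label per hour, 1 was called, against 0 with limma, 0 over 0 to 3.5 h and 5 over 0 to 8 h, and for the rate at 12 h 17, against 28 with limma. The count over the chase did not move by over 1.5 times, with 24 members becoming 16 to 23 without a replicate. Hnrnph2 turned to 0.071 without multimapping reads, and the median half-life change of members went from −0.07 to 0.02 without the 12 libraries, to −0.17 with a residual standard error up to 0.15 and to −0.13 to −0.03 without a replicate. With 3.5 h left out of every series, the difference of the series medians of members was −0.13 h in place of −0.37 h, in the same direction. The causes were not tested.

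With the replicate number as a block, 25 members were called over the chase, 5 at 12 h and 14 from 0 to 12 h in DMSO, and 17 for the rate at 12 h. Same-numbered libraries did not deviate together (1 of 35 correlations over 0.1, mean 0.01), so the numbers do not pair them. Of 800 values of single genes under alternatives, 658 kept direction and side of the threshold, 141 lost the call and 1 reversed. Members with few reads, down to 24 in the median library, could show only large changes.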
